A study of Rattus norvegicus with 8 samples.

Results

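The Krueppel-like factors are a family of DNA-binding transcription factors, and 10 of their genes (Klf2, Klf3, Klf4, Klf5, Klf6, Klf9, Klf10, Klf11, Klf13 and Klf15) were followed in perfused rat liver. A gene was represented by the array probe set that the platform annotation ties to that symbol alone, and by the brightest over all arrays where a gene had several. All 10 genes were found, with 12 probe sets between them, among 14506 named genes. Total RNA came from isolated livers of male Wistar rats aged 6 to 10 weeks, perfused with Krebs-Henseleit buffer at 305 mosm/L (normoosmotic, 4 arrays) or at 225 mosm/L (hypoosmotic, 4 arrays), and all 8 arrays carry the label of 120 min. Whether each array stands for its own animal is not stated in the labels, and the p-values then cover only the spread between arrays, which may be technical.

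Krueppel-like factors share zinc fingers at their C-terminal end that bind GC-rich and CACCC-type DNA elements, and they differ in the N-terminal part that recruits coactivators or corepressors. Several are induced within minutes to hours by growth signals, fluid flow or hormones, and others are outputs of the circadian clock. In liver they are known for roles in glucose and amino acid metabolism, in the response to injury and in the endothelium of the sinusoids.

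All levels are on the log2 scale of the deposited table, and a change is the hypoosmotic minus the normoosmotic mean. The array medians lay between 4.05 and 4.16, and no array duplicated another. Of 8 hepatocyte markers all 8 were measured, and albumin (Alb) read 12.94 to 13.08 over the 8 arrays. By limma 0 of the 8 passed at an adjusted p under 0.05, and 0 had an unadjusted p under 0.05. Their changes went both ways, from −0.15 for Apoa1 to 0.2425 for Hnf4a, with a median of −0.025. In tissue RNA, fewer cells of a type and less RNA per cell cannot be told apart. Normoosmotic replicates 1 and 3 stood apart from replicates 2 and 4 in clock genes, with the clock activator Bmal1 at 4.85 and 4.75 against 7.18 and 7.32.

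The family gave 1 called member, Klf6, which fell, and a second gene, Klf5, whose result depended on the probe set read. Klf6 stood at 58.1% of its normoosmotic level on the linear scale. The brightest Klf5 probe set had a log2 change of 0.69 and did not pass. A dimmer one, tested after its values were seen and low in normoosmotic samples, rose by 1.73 log2 units. The remaining 8 members did not pass the test. By limma with Benjamini-Hochberg adjustment over all genes, 1 of 10 members was called at an adjusted p under 0.05, where 1.98% of all genes were. The called member was lower, as 1.42% of all genes were, and 0 members were called higher against 0.558% of all genes. At an unadjusted p under 0.05 there were 4 members against 14.6% of all genes. The median change of the members was 0.19, beside 0.04 over all genes. A positive change was seen in 6 of the 10 members, near the share of 58.6% over all genes.

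**Figure D1:**
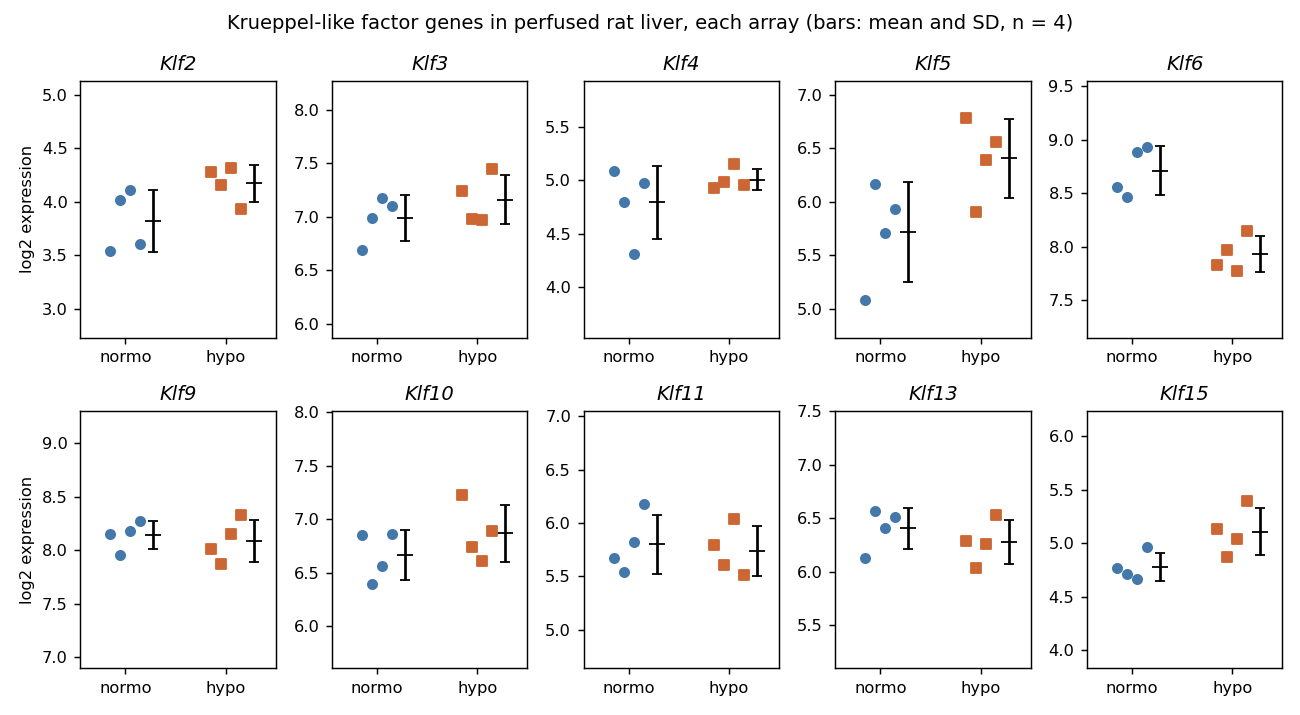
Log2 expression of the 10 Krueppel-like factor genes in each array (circles, normoosmotic; squares, hypoosmotic), with the mean and SD of 4 arrays beside each group; every panel spans the same number of log2 units. Klf6 is the panel in which the groups do not overlap, with 8.47 as the lowest normoosmotic and 8.15 as the highest hypoosmotic value.

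The DNA upstream of the start sites of Klf6 and Klf5 is shown because these genes hold the called probe sets of the family. Each sequence is the 250 bases before the annotated start, from RefSeq on the GRCr8 assembly, with Klf6 at chr17:69458479-69458728 on the minus strand and Klf5 at chr15:82471831-82472080 on the plus strand. Capitals mark matches on either strand to the CACCC element, the E-box CACGTG, the cyclic AMP element TGACGTCA or the GC box GGGCGG.
Klf6: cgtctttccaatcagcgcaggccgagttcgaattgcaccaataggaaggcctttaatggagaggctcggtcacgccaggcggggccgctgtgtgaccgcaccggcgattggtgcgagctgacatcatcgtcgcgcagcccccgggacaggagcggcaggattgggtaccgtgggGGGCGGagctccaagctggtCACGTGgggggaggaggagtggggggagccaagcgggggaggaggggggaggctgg
Klf5: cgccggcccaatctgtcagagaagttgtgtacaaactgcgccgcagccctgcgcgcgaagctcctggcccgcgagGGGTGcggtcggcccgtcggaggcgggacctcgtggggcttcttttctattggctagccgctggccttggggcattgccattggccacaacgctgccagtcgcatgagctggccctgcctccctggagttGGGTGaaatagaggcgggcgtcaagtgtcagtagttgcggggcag

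The Klf6 window held 1 E-box, the element that clock and Myc-type factors bind, 1 GC box and 0 CACCC elements. The Klf5 window held 2 CACCC elements and none of the other motifs. Both windows were rich in G and C, at 67.2% and 65.2% against a median of 52.0% over 27457 promoters. Promoter sequences were matched for 7 members (Klf3, Klf4, Klf5, Klf6, Klf9, Klf11 and Klf15). Of these, 3 held the E-box (5.79% of all promoters), 4 the CACCC element (49.4%), 2 the GC box (32.4%) and 0 the cyclic AMP element (1.70%). Such matches describe letters and show no binding.

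Klf6 is an immediate early factor, induced in rat stellate cells after liver injury and present in hepatocytes as well. Its probe set 10799291 read 8.56, 8.47, 8.89 and 8.93 in normoosmotic replicates 1 to 4 and 7.83, 7.97, 7.77 and 8.15 in hypoosmotic replicates 1 to 4. All 4 hypoosmotic arrays lay below all 4 normoosmotic ones, as they did for 5.05% of all genes. The means were 8.71 ± 0.23 and 7.93 ± 0.17 (SD, n = 4 each), and Klf6 fell by 0.78 on the log2 scale with a standard error of 0.14 (limma, adjusted p = 0.0129). On the linear scale the ratio was 0.581, with a 95% interval of 0.473 to 0.714. The call was kept under all 17 alternative settings, with adjusted p-values between 0.0068 and 0.0484. The highest was reached without normoosmotic replicate 3, and adding a clock score to the model (Bmal1 and Npas2 averaged, less the average of Dbp and Per3) gave 0.0462. Of 7 measured stellate and fibroblast markers 0 were called by limma. At an unadjusted p under 0.05 there was 1, Reln, with a log2 change of −0.455. The 7 markers had a median change of −0.03 and changes up to 0.245 for Pdgfrb. Their summed linear signal ranged from 652 to 1135 in normoosmotic and from 675 to 880 in hypoosmotic samples.

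**Figure D2:**
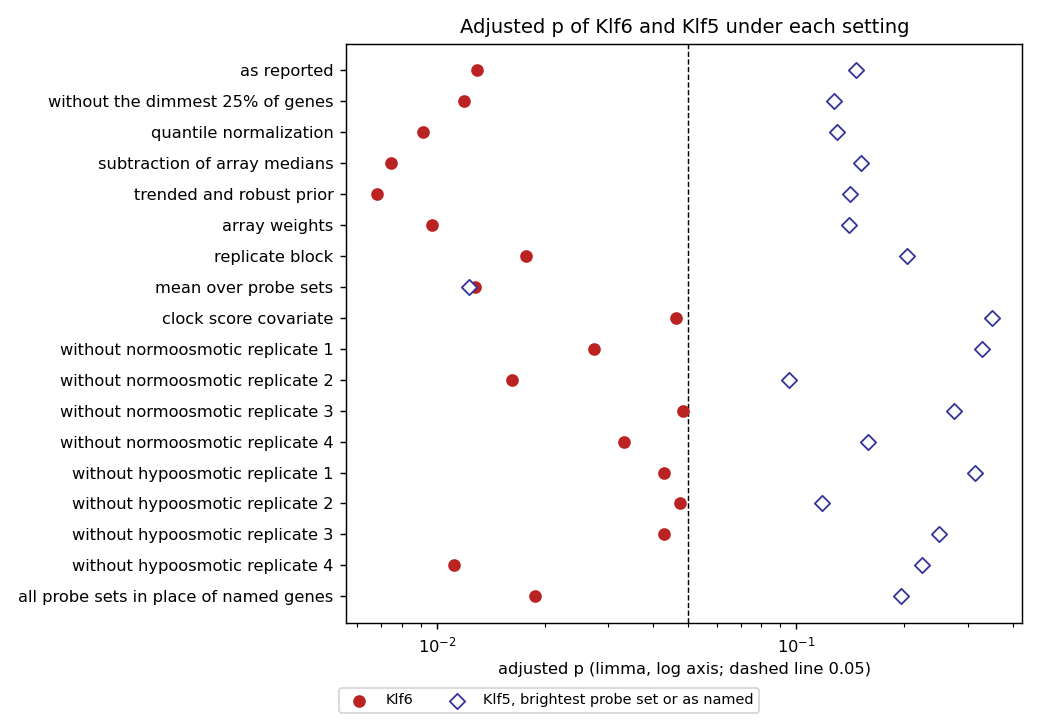
Adjusted p (log axis) of Klf6 (filled circles) and of Klf5 (open diamonds) in the reported fit and under each alternative setting, with a dashed line at 0.05. Klf6 stays left of the line in all of them, up to 0.0484, and Klf5 crosses it where its probe sets were averaged, at 0.0123.

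The genes whose pattern over the 8 arrays was most like that of Klf6 were Supt6h, a transcription elongation factor (Pearson r = 0.987), Plaur, the urokinase receptor (r = 0.981), and Mapkbp1, a MAP kinase binding protein (r = 0.980). These correlations span both groups and are given as a description of 8 arrays with no test. Supt6h itself had a log2 change of −0.43, Plaur one of −0.41 and Mapkbp1 one of −0.54, with limma adjusted p-values of 0.0597, 0.084 and 0.0573.

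Among 23 measured immediate early genes outside the family, 4 fell and 1 rose, and 18 did not pass. Their median change was −0.21, beside 0.04 over all genes, and 11 of the 23 had an unadjusted p under 0.05 by limma, against 14.6% of all genes. The small Maf factor gene Maff fell by 1.11 on the log2 scale, with 6.89 to 7.46 in normoosmotic and 5.85 to 6.24 in hypoosmotic samples. Myc, a driver of growth and ribosome production, fell by 0.83, Dusp1, a MAP kinase phosphatase gene, by 0.88 and Ier3 by 0.64. In the other direction Gadd45b, a stress-induced gene, rose by 0.65, with 8.12 to 8.75 in normoosmotic and 8.82 to 9.20 in hypoosmotic samples. Maff and Myc kept their calls under all 16 alternatives run on named genes. Dusp1 kept its call under 10 of them, and Ier3 and Gadd45b under 9 each, with adjusted p-values up to 0.0799, 0.0801 and 0.13. Each of these 3 lost it without each of normoosmotic replicates 1 and 3 and hypoosmotic replicates 2 and 3 in turn, and with the clock score in the model (0.0583 to 0.107).

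Klf5 promotes proliferation of epithelial cells and is best known from the gut. Its brightest probe set, 10835837, read 5.08, 6.17, 5.71 and 5.93 in normoosmotic replicates 1 to 4 and 6.78, 5.91, 6.39 and 6.56 in hypoosmotic replicates 1 to 4. The groups overlapped, with normoosmotic replicates 2 and 4 above hypoosmotic replicate 2. The log2 change was 0.69 (95% interval 0.20 to 1.17; limma, adjusted p = 0.146). Without normoosmotic replicate 1, the lowest array, it was 0.47.

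The other Klf5 probe set, 10781829, was dimmer, with a mean above that of 47.4% of all probe sets. It read 2.48, 3.28, 3.39 and 3.24 in normoosmotic replicates 1 to 4 and 4.63, 4.63, 4.52 and 5.52 in hypoosmotic replicates 1 to 4. All 4 hypoosmotic arrays lay above all 4 normoosmotic ones, as they did for 2.80% of all probe sets. The means were 3.10 ± 0.42 and 4.83 ± 0.47 (SD, n = 4 each), so the probe set rose by 1.73 ± 0.24 (SE) log2 units (limma over 27596 probe sets, adjusted p = 0.00558). The normoosmotic level was low, with a mean above that of 31.2% of probe sets in those arrays, and no detection call was used, so it can be background and no fold is given. Only 6 probe sets on the array had a larger positive change. Over all probe sets 1.26% were called and 0.37% were called higher, and of the 12 probe sets of the family 2 were called, this one and that of Klf6. The comparison of this probe set was made after its values were seen. It kept the call under 15 of 15 further settings, with log2 changes from 1.496 to 1.829.

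**Figure D3:**
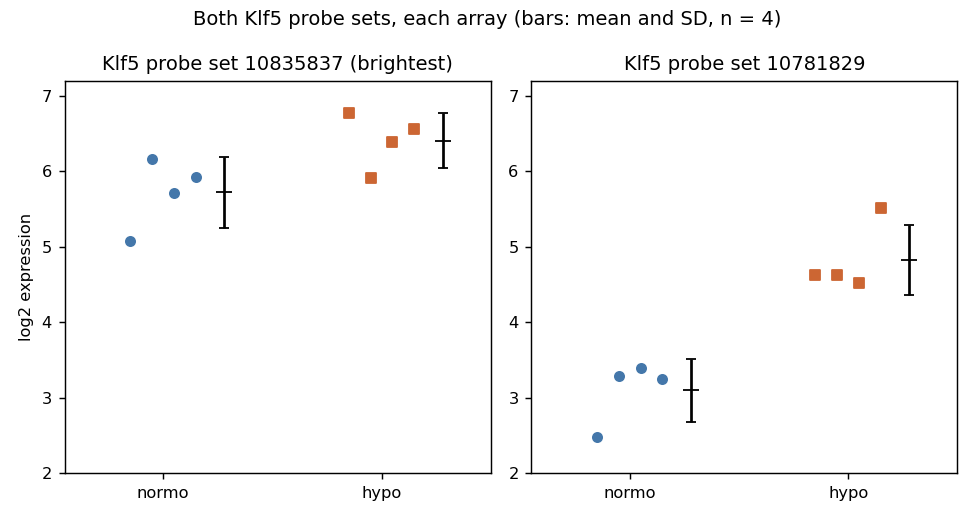
Log2 expression read by each of the Klf5 probe sets in each array (circles, normoosmotic; squares, hypoosmotic), with the mean and SD of 4 arrays. In the right panel the highest normoosmotic value, 3.39, lies below the lowest hypoosmotic value, 4.52, and in the left panel the groups overlap.

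The Klf5 probe sets differed in their change. Within each array, probe set 10781829 minus probe set 10835837 was −2.89 to −2.32 in normoosmotic and −2.15 to −1.04 in hypoosmotic samples. These ranges did not overlap, and their means differed by 1.04 (95% interval 0.27 to 1.81). An exact two-sided permutation test over the 70 assignments of 4 and 4 arrays gave p = 0.0286, the smallest it can give, for a comparison chosen after the values were seen. Probe set numbers on this array largely follow chromosomes, since 91.9% of neighbouring numbers belong to genes of 1 chromosome. By number, probe set 10781829 lies between those of Bora and Uchl3, and 8 of its 10 nearest numbers belong to genes within 50 protein-coding genes of Klf5 in the RefSeq gene order. Probe set 10835837 lies between those of the olfactory receptor genes Or1j8b and Or1j16b, and 0 of its 10 nearest numbers belong to genes that close to Klf5. Which transcript each probe set reads was not tested. By limma 0 of 5 measured cholangiocyte markers were called, and 1, Spp1, had an unadjusted p under 0.05, with a log2 change of 0.26. Cftr and Krt7 had changes of 0.16 and 0.09, and Krt19 and Epcam had changes of −0.15 and −0.10. The summed linear signal of the 5 markers ranged from 125 to 178 in normoosmotic and from 107 to 183 in hypoosmotic samples. The part of these cells in the Klf5 result was not tested.

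**Figure D4:**
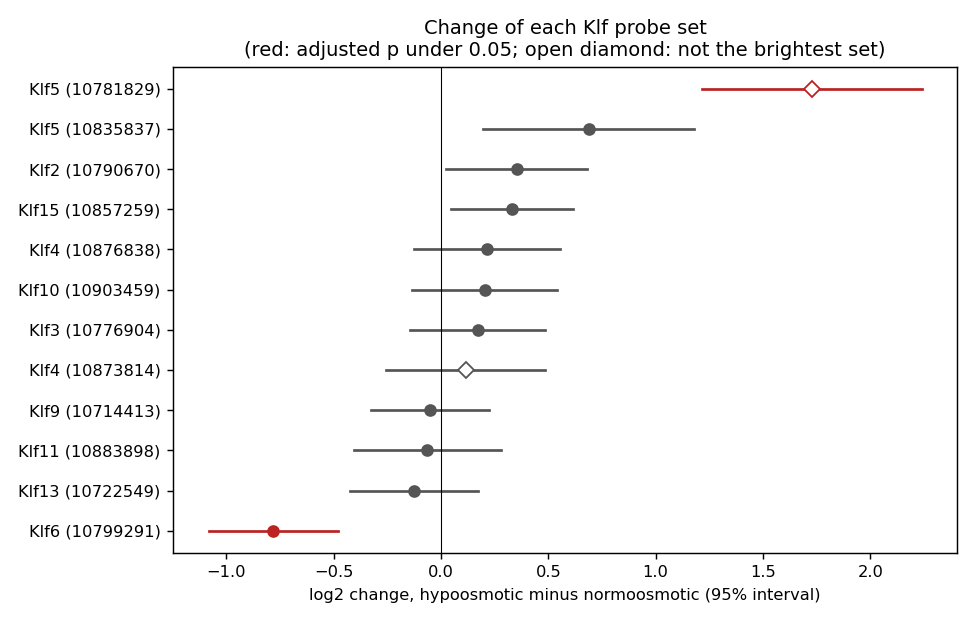
Log2 change with its 95% interval for each of the 12 probe sets of the family, from the fit over all probe sets (red, adjusted p under 0.05; open diamonds, probe sets that were not the brightest of their gene). Klf6 at −0.78 and Klf5 probe set 10781829 at 1.73 form the ends of the range.

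Klf2 and Klf4 are induced by fluid shear in endothelium, and Klf4 is also a regulator of epithelial differentiation. Klf2 (probe set 10790670) read 3.54, 4.02, 4.11 and 3.61 in normoosmotic replicates 1 to 4 and 4.28, 4.16, 4.32 and 3.93 in hypoosmotic replicates 1 to 4. Only the hypoosmotic replicate 4 lay within the normoosmotic range. The normoosmotic mean of Klf2, 3.82, lay below the medians of the arrays, 4.05 to 4.16. No detection call was used, so this level can be background. The log2 change was 0.35 with a 95% interval of 0.03 to 0.68, and it did not pass over all genes (limma, adjusted p = 0.294).

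Klf4 (probe set 10876838) ranged from 4.31 to 5.09 in normoosmotic and from 4.93 to 5.15 in hypoosmotic samples, with normoosmotic replicate 3 the lowest array. Its log2 change was 0.21 (−0.12 to 0.55, limma adjusted p = 0.598), and a dimmer Klf4 probe set, 10873814, had one of 0.12 (adjusted p = 0.857 over all probe sets). Of the 10 probe set numbers nearest to 10873814, 0 belong to genes within 50 protein-coding genes of Klf4 in the RefSeq order, against 8 for 10876838, and which transcript it reads was not tested. The within-array difference of Klf2 and Klf4 changed by 0.14 between the groups (95% interval −0.80 to 1.08; exact permutation p = 0.686). Without normoosmotic replicate 1 it was −0.05.

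Of 13 measured genes of the flow-sensing kinase cascade above Klf2 and Klf4 and of their endothelial targets, 1 fell, 0 rose and 12 did not pass, with a median change of −0.21. The list pools kinases, transcription factors and targets, so the median gives no common direction. At an unadjusted p under 0.05 there were 6, against 14.6% of all genes, and they went both ways. S1pr1, a receptor for a lipid signal in endothelium, had the highest change, 0.77, and Thbd had 0.315 (limma adjusted p = 0.112 and 0.177). The adhesion molecule gene Vcam1 had the lowest, −0.68, with Mapk7 at −0.605 and Edn1 at −0.57 (limma adjusted p = 0.0574, 0.0866 and 0.193). The fallen gene was Mef2a, a transcription factor of the family that activates Klf2, with 7.81 to 8.0 in normoosmotic and 7.35 to 7.49 in hypoosmotic samples (limma, log2 change −0.46, adjusted p = 0.0422). Its call was kept under 7 of 16 alternatives, and of the 8 arrays only hypoosmotic replicate 4 could be left out without losing it (adjusted p up to 0.133). It was also lost with the replicate block (0.0608) and with the clock score (0.124). Sinusoidal endothelial markers gave 0 calls among 6 measured by limma and 0 at an unadjusted p under 0.05, with changes from −0.26 for Oit3 to 0.21 for Lyve1.

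Klf6 and Klf2 had changes of opposite sign, where the low Klf2 level can be background, as said above. The difference of Klf6 and Klf2 within an array was 4.45 to 5.32 in normoosmotic and 3.45 to 4.22 in hypoosmotic samples, a change of −1.14 (95% interval −1.75 to −0.52). The exact permutation p was 0.0286, the smallest that 4 against 4 arrays allow. After Benjamini-Hochberg adjustment over the 4 pairs of members compared it was 0.114, so the difference did not pass. A lone pair at the smallest p cannot get below 0.114 after this adjustment, so the test could not have called it.

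Klf15, in mouse liver an activator of amino acid breakdown and gluconeogenesis, read 4.77, 4.71, 4.67 and 4.97 in normoosmotic replicates 1 to 4 and 5.13, 4.87, 5.04 and 5.4 in hypoosmotic replicates 1 to 4. Hypoosmotic replicate 2 lay below normoosmotic replicate 4, and the other arrays of the groups were apart. The log2 change was 0.33 (95% interval 0.05 to 0.61; limma, adjusted p = 0.251). Of 13 metabolic genes tied to Klf15, 1 fell, 0 rose and 12 did not pass, with a median change of 0.08. The gene that fell was Tat, which starts tyrosine breakdown, with 11.69 to 11.82 in normoosmotic and 10.91 to 11.17 in hypoosmotic samples (limma, log2 change −0.76, adjusted p = 0.00408). At an unadjusted p under 0.05 there were 4 of the 13, against 14.6% of all genes, namely Tat, G6pc1, Pck1 and Bckdhb. Of these Bckdhb went up, with the highest change of the list, 0.405 (limma adjusted p = 0.222). The gluconeogenic enzyme genes G6pc1 and Pck1 had changes of −0.91 and −0.78 (limma adjusted p = 0.109 and 0.0963), and the amino acid enzyme genes Prodh and Gpt had changes of 0.24 and 0.08 (0.626 and 0.86).

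Klf9, a factor induced by glucocorticoids and under clock control in mouse tissues, was among the brighter members. It read 8.15, 7.96, 8.18 and 8.27 in normoosmotic and 8.01, 7.87, 8.15 and 8.33 in hypoosmotic replicates 1 to 4, so the groups lay over each other. The log2 change was −0.05 (95% interval −0.32 to 0.22, limma adjusted p = 0.907), and it was 0.02 without hypoosmotic replicate 2. Klf13, its close relative, had a change of −0.13 (−0.42 to 0.17, adjusted p = 0.741) over values of 6.03 to 6.57. Klf9 and Klf13 differed in their change by 0.08 (95% interval −0.32 to 0.48; exact permutation p = 0.686), and by −0.04 without normoosmotic replicate 2. Of 13 genes listed for glucocorticoid action, the receptor gene Nr3c1 among them, 2 rose, 2 fell and 9 did not pass. Their median change was −0.03, and 8 of the 13 had an unadjusted p under 0.05 by limma, against 14.6% of all genes. Cebpd, a transcription factor gene of the acute phase, rose by 0.50 and the growth inhibitor gene Ddit4 by 0.66, while Tat and Dusp1, given above, fell. Ddit4 kept its call under 11 of 16 alternatives and lost it without normoosmotic replicates 1 and 3, without hypoosmotic replicates 1 and 3, and with the clock score in the model (adjusted p = 0.0652). Cebpd kept it under 6 and lost it without any 1 of the 8 arrays, with the replicate block (0.0537) and with the clock score (0.124).

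Klf10 and Klf11 are repressors induced early by Tgf-beta, and Klf10 is an output of the clock in mouse liver. Klf10 read 6.85, 6.39, 6.56 and 6.86 in normoosmotic and 7.23, 6.74, 6.61 and 6.89 in hypoosmotic replicates 1 to 4. Hypoosmotic replicate 1 was the highest array, and the groups overlapped. The log2 change was 0.20 (95% interval −0.13 to 0.54, limma adjusted p = 0.616). Klf11 had a change of −0.07 (−0.40 to 0.27, adjusted p = 0.902) over values of 5.51 to 6.18, and the sign turned without normoosmotic replicate 4, at 0.06, and without hypoosmotic replicate 4, at 0.01. The changes of Klf10 and Klf11 differed by 0.27 (95% interval −0.33 to 0.86; exact permutation p = 0.314). Of 8 measured genes of Tgf-beta and Smad signalling 0 were called by limma and 3 had an unadjusted p under 0.05, namely Smad3 and the receptor gene Tgfbr1 at −0.41 each and Smad4 at −0.39.

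Klf3, a repressor that recruits the corepressor Ctbp, ranged from 6.69 to 7.18 in normoosmotic and from 6.97 to 7.45 in hypoosmotic samples, with a log2 change of 0.17 (95% interval −0.14 to 0.48, limma adjusted p = 0.661). Of 10 measured cofactors of the family 0 were called by limma and 2 had an unadjusted p under 0.05. These were the acetyltransferase gene Crebbp at −0.52 (adjusted p = 0.0698) and the deacetylase gene Hdac2 at −0.42 (0.0573), while Ctbp1 and Ctbp2 were at −0.22 and −0.06. The cofactors had a median change of −0.17.

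Among the normoosmotic arrays, the readings of the clock-linked members did not follow the split in clock genes. Dbp, which the clock drives, stood at 8.89 and 9.04 in normoosmotic replicates 1 and 3 and 6.22 and 6.31 in replicates 2 and 4. In the same pairs of arrays Klf9 read 8.15 and 8.18 against 7.96 and 8.27, Klf10 read 6.85 and 6.56 against 6.39 and 6.86, and Klf15 read 4.77 and 4.67 against 4.71 and 4.97. For each of these the values of one pair lay within or across those of the other. Dbp also differed among hypoosmotic arrays, with 5.96 and 6.43 in replicates 1 and 2 and 7.98 and 8.08 in replicates 3 and 4. There Klf9 read 8.01 and 7.87 against 8.15 and 8.33, without overlap. Klf10 read 7.23 and 6.74 against 6.61 and 6.89, and Klf15 5.13 and 4.87 against 5.04 and 5.4, both with overlap. These pairs of arrays were picked by their Dbp values. With 2 arrays against 2, a gap like that of Klf9 arises easily by chance, and its share over all genes was not counted. A link of these members to the clock was not tested. Of 15 measured clock genes 1 fell, the repressor gene Nr1d2, by 0.78, with 8.63 to 9.06 in normoosmotic and 7.71 to 8.40 in hypoosmotic samples, and 0 rose. Its limma adjusted p was 0.0318, and the call was lost without normoosmotic replicates 1 and 3 and hypoosmotic replicates 1 and 2, up to 0.111, and with the clock score in the model (0.0735). The median change of the clock genes was −0.38, but they went both ways, so it gives no common direction. Nr1d2 had the lowest change and Bmal1 the highest, at 0.82, with Npas2 at 0.70 (limma adjusted p = 0.507 and 0.498). An unadjusted p under 0.05 by limma was seen in 3 of the 15, against 14.6% of all genes.

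Of 10 further Klf and Sp genes measured, 0 were called by limma and 0 had an unadjusted p under 0.05, with a median change of 0.03. They ran from −0.26 for Klf12, a repressor, to 0.34 for Klf14, and Sp1, the widely expressed GC-box factor, was at 0.01 with a 95% interval of −0.27 to 0.28.

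**Figure D5:**
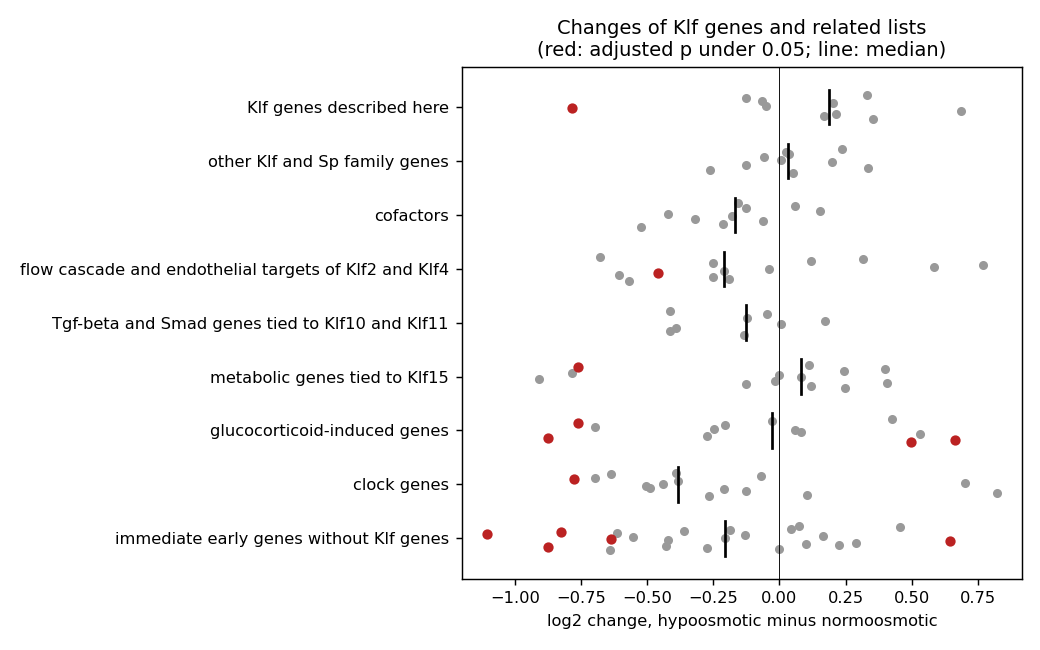
Log2 change of each gene (points) in the 10 members and in 8 related lists, with the median as a black line and called genes (adjusted p under 0.05) in red. Klf6 is the red point of the members, at −0.78, and the immediate early genes hold 5 red points.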

How the data were processed

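The authors deposited a log2 value, given to 2 decimals, for each of 27596 probe sets in each of 8 arrays, and the scale was read from the range, 0.88 to 13.26. Transcriptome Analysis Console 4.0 is named per the submitters' processing notes, with probe summary, background step, normalization and genome build not given in the sources used here. No detection call was used, and the 4 arrays per group limit the precision. Of the probe sets 15310 had 1 symbol, 323 had several and 11963 stay unnamed here. Current symbols came by gene ID from the RefSeq table of GRCr8, where 15279 matched, and the brightest probe set was taken for each gene with several.

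Groups were compared with limma 3.58.1 in R 4.3.3 (lmFit, eBayes, two-sided), adjusted by Benjamini-Hochberg over 14506 genes, or over all probe sets where stated. On simulated data with 14506 genes, 30.6% of changes of 0.5 log2 units and 89.9% of changes of 1 unit were recovered. The 20 simulated runs had 200 changed genes each and independent normal noise for each gene. Spread shared between genes, as in the clock split, was not simulated, so the rates may differ for these arrays. For 4 pairs of members, within-array differences were compared by exact permutation, with intervals from the separate group variances. The members and lists were chosen with earlier results of these data known. All members are described, together with the called genes of the lists, the clock readings and the 3 genes most like each called member. Alternatives were a filter on dim genes, quantile normalization, median subtraction, a trended and robust prior, array weights, a replicate block, averaged probe sets, all probe sets, the clock score covariate, other thresholds, and leaving out each array. Tests of the second probe sets of Klf5 and Klf4 were added after seeing the data.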

Additional observations from a re-analysis of the deposited data

Results flagged for a closer look

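Klf5 probe set 10781829 was outside the rule that takes the brightest probe set of a gene, and it carried a log2 change of 1.73, with every hypoosmotic sample above every normoosmotic one. In this probe set normoosmotic replicate 1, at 2.48, lay far below the other normoosmotic arrays, and hypoosmotic replicate 4, at 5.52, lay far above the other hypoosmotic arrays. Such gaps arise by chance in about 1 of 20 groups. Without normoosmotic replicate 1 the log2 change was 1.52 (limma over all probe sets, adjusted p = 0.0152), and without hypoosmotic replicate 4 it was 1.496 (adjusted p = 0.00701).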

How the results depend on the processing

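Of 170 member values under the alternatives fixed with the design, 166 kept their sign and their side of the threshold, 1 (Klf5, log2 change 1.21 and adjusted p = 0.0123 with averaged probe sets) passed, and 3 uncalled values of Klf9 and Klf11 changed sign. The count of called members was 1, against 2 with averaged probe sets, 2 over all probe sets and 0 at a threshold of 0.01, and it was 1 without each array. The count of called genes was 287, against 92 with the clock score covariate, 601 at a threshold of 0.10 and 68 at 0.01. It ran from 81 to 365 when an array was left out. The cause of the shifts with the clock score and with an array left out was not tested. Without an array, the difference in change ran from −0.0517 to 0.398 for Klf2 and Klf4 (turned without normoosmotic replicate 1), from −0.0375 to 0.173 for Klf9 and Klf13 (turned without normoosmotic replicate 2), from 0.16 to 0.45 for Klf10 and Klf11, and from −1.29 to −0.99 for Klf6 and Klf2. The deviations of same-numbered arrays had correlations across genes of 0.05, 0.03, 0.08 and 0.17. Those of differently numbered arrays ran from −0.30 to 0.21. The labels do not say whether a number pairs the arrays, and so few correlations cannot decide it. With the replicate number as a block 256 genes and 1 member were called, Klf6 with an adjusted p of 0.0177, and the block changed no member's call. Sign flips of the 4 same-numbered differences cannot give an exact p below 0.125, which Klf6 against Klf2 reached. Dim probe sets compress differences, and 0 members lay in the dimmest 25% of genes. Klf2 was the dimmest member, at percentile 39.5 of the gene means.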
